A study of Mus musculus with 54 samples.

Results

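The type 2 cytokine locus of mouse chromosome 11 holds the interleukin genes Il5, Il13 and Il4 and, between Il13 and Il5, the DNA repair gene Rad50. These 4 genes were taken by name from both expression tables. All 4 were listed in each, among 10799 genes measured in cultured cells and 10176 measured in cells labelled as primary, and all 4 passed the filter on low values. The cells were group 2 innate lymphoid cells (ILC2s) of the small intestine of C57BL/6 mice, 8 to 12 weeks old labelled as pooled male and female, and RNA was read by Smart-seq2, which makes libraries from full-length transcripts. In culture, wild-type ILC2s were kept with IL-2, IL-7 and IL-25 or with IL-2 and IL-7 alone for 4, 48 or 72 h, which gives 6 groups of 4 libraries. The other 4 groups, also of 4 libraries, were iILC2 KO, iILC2 CTRL, nILC2 KO and nILC2 CTRL. All 16 of these were labelled as treated with IL-25 for 48 h. KO mice carried a knockout of Rxrg, which encodes the nuclear receptor RXR gamma, written Rxrg-/- in the series text. CTRL mice were labelled WT. The name of the deposited table writes cKO for the KO groups, and that of the culture table gives 28 h where the labels of each library give 48 h; the labels are followed here. Against the label of pooled sexes, the sum of 4 Y-linked genes was 0 to 0.59 TPM in 6 of these 16 libraries and 93.4 to 142 TPM in the other 10. The labels spelled out neither prefix, named no cell type or promoter for the deletion, and did not tie libraries to animals, so p-values measure the spread between these samples, which may be technical. Chromatin samples of the same series were not analysed here.

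ILC2s are tissue lymphocytes without antigen receptors that answer epithelial alarm signals, IL-25 among them, with type 2 cytokines. IL-5 drives the growth and survival of eosinophils. IL-13 makes goblet cells secrete mucus and tuft cells expand, and IL-4 shares with it the receptor chain IL-4R alpha and acts on B cells, T cells and macrophages. In T helper 2 cells the 3 cytokine genes are switched on together under the factor GATA3, and introns of Rad50 carry a locus control region for them. Rad50 itself is made in most cells. Its product is the ATPase of the complex with MRE11 and NBS1 that holds broken DNA ends.

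In the RefSeq annotation of GRCm38.p6, the build that the authors' mm10 corresponds to, Il4 spans chr11:53612460-53618665, Il13 chr11:53631323-53634702, Rad50 chr11:53649519-53707319 and Il5 chr11:53720794-53725103. The 4 genes fill 112.6 kb, with gaps of 12.7 kb between Il4 and Il13, 14.8 kb between Il13 and Rad50, and 13.5 kb between Rad50 and Il5. No other annotated gene overlapped any of them. The 250 bases before the first annotated start of each cytokine gene are printed here. Their part in the levels of these genes was not tested. RefSeq's promoter table for GRCm38.p6 held 3 of the 4 genes. Capitals mark GATA, the letters GATA factors bind, or its reverse TATC. The windows lie at chr11:53720544-53720793 on the plus strand for Il5, chr11:53634703-53634952 on the minus strand for Il13 and chr11:53618666-53618915 on the minus strand for Il4, each written 5′ to 3′ along its gene.
Il5: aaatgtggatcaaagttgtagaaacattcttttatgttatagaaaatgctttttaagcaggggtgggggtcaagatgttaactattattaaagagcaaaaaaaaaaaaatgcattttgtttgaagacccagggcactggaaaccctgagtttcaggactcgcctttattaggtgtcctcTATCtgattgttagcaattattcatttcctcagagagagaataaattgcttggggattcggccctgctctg
Il13: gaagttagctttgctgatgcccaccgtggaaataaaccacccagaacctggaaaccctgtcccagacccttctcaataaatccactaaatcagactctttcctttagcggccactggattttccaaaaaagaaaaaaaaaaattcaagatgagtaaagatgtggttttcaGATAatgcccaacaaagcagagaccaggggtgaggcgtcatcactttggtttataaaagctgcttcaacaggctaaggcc
Il4: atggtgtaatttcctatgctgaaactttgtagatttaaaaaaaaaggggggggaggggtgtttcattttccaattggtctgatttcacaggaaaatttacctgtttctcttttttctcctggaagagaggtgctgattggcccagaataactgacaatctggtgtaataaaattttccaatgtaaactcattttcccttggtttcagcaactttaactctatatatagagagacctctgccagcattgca
Il5 held 1 TATC that begins 71 bases before the start, and Il13 held 1 GATA that begins 80 bases before it. This Il4 window held none on either strand. RefSeq gives Il4 another start inside the gene, and the 250 bases before that one, at chr11:53617339-53617588, held 3 matches that begin 222, 79 and 36 bases before it. Of all 32851 promoter windows of this length, 53.6% held GATA or TATC, so its presence is common. GGAAA or TTTCC, the core letters of NFAT sites, occurred 2 times in Il5, 4 times in Il13 and 5 times in the printed Il4 window, but 0 times before the inner Il4 start, and 55.6% of all windows held at least 1. These matches did not overlap the GATA matches. TGANTCA (an AP-1 motif, in 6.75% of windows), TTCNNNGAA (STAT, 7.02%) and AGGTCA (a nuclear receptor half-site, 14.0%), searched on both strands, were in none of these windows.

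The tables hold TPM, a read share scaled by transcript length, which allows genes to be compared within a library. Read depth cannot be recovered from it, and the values carry no counting error. All 11 ILC2 markers were listed in both tables, with sums of 2531 to 3697 TPM per library in culture. All 11 markers of mast cells, basophils and eosinophils, other known sources of Il4 and Il13 RNA, were absent from both tables. Of 9 T cell markers, 2 were listed in culture (Cd3e and Cd3g, sum 15.9 to 129 TPM) and 1 in the other table (Cd3g). Epcam and Krt18 (of 8 epithelial markers), Cd79b (of 6 B cell markers) and 1 or 2 of 8 myeloid markers were listed. As a check of the labels, Rxrg was at 0 to 0.48 TPM in iILC2 KO against 1.26 to 1.83 in iILC2 CTRL, and at 1.27 to 3.12 TPM in nILC2 KO against 12.2 to 18.4 in nILC2 CTRL. In bulk RNA, a smaller share of expressing cells and less RNA per cell cannot be told apart.

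IL-25 raised Il5 and Il13 in culture at all 3 times, did not raise Il4, and moved Rad50 by at most 0.36 on the log2 scale. Il5 in the 4 libraries with IL-25 was 2222, 2214, 1789 and 1911 TPM at 4 h, against 323, 308, 492 and 318 TPM without it. At 48 h Il5 was 2333, 1949, 2026 and 2095 TPM with IL-25, against 199, 191, 169 and 191 TPM without. At 72 h Il5 was 3449.7, 2949, 2673 and 3568 TPM with IL-25, against 243, 153, 171 and 258 TPM without. The groups were far apart at every time, and the third library without IL-25 at 4 h stood above its 3 companions. The ratio of the means was 5.65, 11.2 and 15.3 at 4, 48 and 72 h. On the log2(TPM + 1) scale the differences were 2.52 (95% interval 2.22 to 2.81), 3.48 (3.18 to 3.78) and 3.96 (3.66 to 4.25), with limma adjusted p of 1.4e-12, 3.7e-16 and 2.6e-17. By mean level Il5 ranked 84th, 88th and 49th of the 10799 listed genes with IL-25, against 348th, 674th and 634th without.

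Il13 followed Il5 at a lower level. At 4 h it was 153, 155, 142 and 150.0 TPM with IL-25, against 21.9, 20.0, 24.6 and 27.3 TPM without. At 48 h it was 199, 208, 202 and 191 TPM with IL-25, against 23.1, 24.3, 24.5 and 23.7 TPM without. At 72 h it was 413, 292, 286 and 360.0 TPM with IL-25, against 32.0, 33.5, 25.0 and 34.1 TPM without. No library with IL-25 came near a library without it. The means differed 6.4-, 8.35- and 10.8-fold, and the log2 differences were 2.64 (2.41 to 2.86), 3.01 (2.79 to 3.23) and 3.39 (3.17 to 3.61), with limma adjusted p of 5.3e-15, 1.8e-17 and 1.5e-18. At 4 h the changes of Il13 and Il5 ranked 9th and 12th by size among the 10548 genes tested, and at 72 h they ranked 67th and 43rd.

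Il4 did not rise with the other interleukins. At 48 h it was 65.0, 63.3, 66.7 and 64.2 TPM with IL-25, against 88.8, 107, 114 and 94.8 TPM without. All 4 libraries with IL-25 lay below all 4 without, and Il4 fell by 0.63 on the log2 scale (95% interval -0.87 to -0.39, limma adjusted p = 7.6e-05), where the median of all genes tested was -0.09. At 4 h Il4 was 87.5, 93.1, 124 and 102 TPM with IL-25, against 153, 109, 127 and 122 TPM without. These groups overlapped, and the difference of -0.33 (adjusted p = 0.026, limma) stood beside an all-gene median of -0.12. That call was lost after rescaling by the median of ratios (-0.18, adjusted p = 0.24, the highest of 16 alternatives, which reached down to 0.0054) and without IL-25 replicate 1, IL-25 replicate 2 or no IL-25 replicate 1. At 72 h Il4 was 121, 97.3, 113 and 89.8 TPM with IL-25, against 121, 109.8, 118 and 91.6 TPM without. The 72 h groups overlapped over nearly their whole range, with a difference of -0.07 (-0.31 to 0.17, adjusted p = 0.66, limma).

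Rad50, which shares the locus but not the cytokine role, moved little. At 4 h it was 41.1, 35.4, 43.6 and 42.3 TPM with IL-25, against 40.9, 33.9, 51.8 and 46.3 TPM without. At 48 h it was 53.0, 46.0, 50.1 and 56.0 TPM with IL-25, against 60.4, 54.7, 69.5 and 48.1 TPM without. The groups overlapped at both times, with log2 differences of -0.08 (-0.32 to 0.17) and -0.17 (-0.41 to 0.07) and limma adjusted p of 0.64 and 0.24. At 72 h Rad50 was 41.1, 40.2, 44.8 and 38.4 TPM with IL-25, against 46.8, 55.4, 51.5 and 58.8 TPM without. These groups did not overlap, and the difference of -0.36 (-0.60 to -0.12, adjusted p = 0.014, limma) passed the test while the median of all genes was -0.20. The call was lost after rescaling by the median of ratios (-0.13, adjusted p = 0.33), after quantile normalization (-0.24, adjusted p = 0.075) and without no IL-25 replicate 4 (-0.31, adjusted p = 0.052), within a range of 0.0084 to 0.33 over 16 alternatives.

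IL-25 changed much of the transcriptome, so the counts of locus genes called, 3 of 4 at each time, are read against 40.3%, 50.1% and 48.5% of all tested genes called in either direction at 4, 48 and 72 h. The 3 genes were Il5, Il13 and Il4 at 4 and 48 h, and Il5, Il13 and Rad50 at 72 h. Of all genes, 13.4%, 21.4% and 15.3% were called higher at 4, 48 and 72 h and 26.9%, 28.7% and 33.2% lower. Higher calls made up 33.3%, 42.7% and 31.5% of all calls, but 51.6%, 51.3% and 55.2% under median-of-ratios scaling.

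Markers also moved with IL-25 in culture, in both directions. Of the 11 ILC2 markers, 3 rose and 3 fell at 4 h, and 3 rose and 6 fell at 48 h. At 72 h, 5 rose and 5 fell. Of all tested genes, 40.3%, 50.1% and 48.5% were called at 4, 48 and 72 h. At 48 h Klrg1, Icos and Il2ra rose, while the sum was 2531 to 2821 TPM with IL-25 against 2887 to 3304 TPM without. Cd79b, the 1 of 6 B cell markers listed, was at 12.3 to 19.5 TPM with IL-25 against 25.2 to 30.1 TPM without at 4 h, at 71.3 to 91.5 against 43.5 to 49.8 TPM at 48 h, and at 132 to 157 against 37.6 to 47.1 TPM at 72 h. The 2 listed T cell markers summed to 15.9 to 25.5 TPM with IL-25 against 28.9 to 35.3 TPM without at 4 h, 23.95 to 29.0 against 82.4 to 129 TPM at 48 h, and 30.8 to 42.2 against 96.0 to 114 TPM at 72 h. So B cell marker RNA was higher with IL-25 at the later times and T cell marker RNA lower throughout. Epcam and Krt18, the 2 of 8 epithelial markers listed, summed to 87.7 to 99.8 TPM with IL-25 against 171 to 186 TPM without at 4 h, 35.1 to 40.5 against 95.9 to 113 TPM at 48 h, and 51.5 to 61.5 against 68.0 to 88.1 TPM at 72 h, although Krt18 alone rose at 48 h (2.73) and 72 h (3.46). Cd68, the 1 of 8 myeloid markers listed, was at 3.84 to 7.23 TPM with IL-25 against 0.49 to 1.28 TPM without at 72 h (1.64) and was not called earlier. The part of these markers in the results on the 4 genes was not tested.

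**Figure D1:**
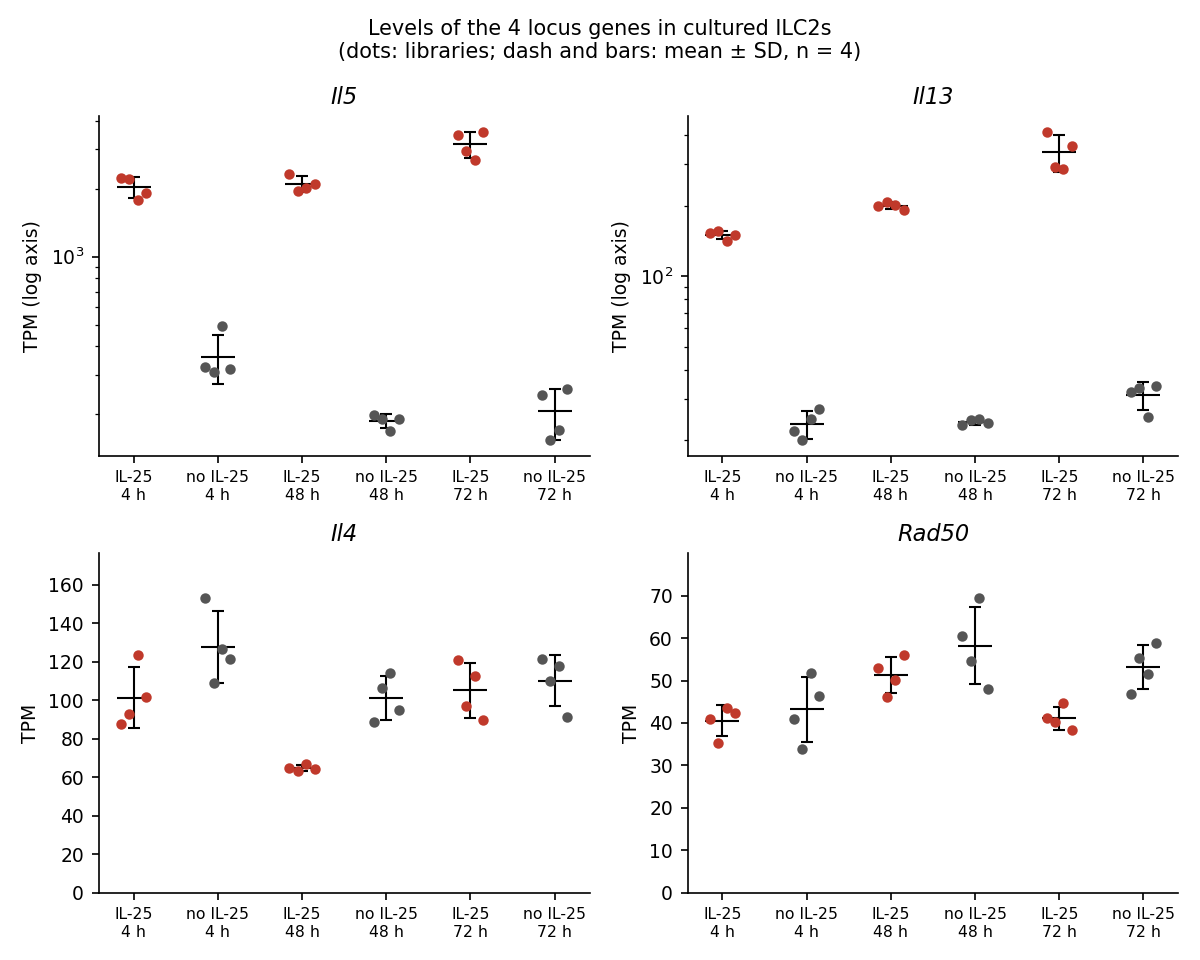
TPM of Il5, Il13, Il4 and Rad50 in each cultured library, with IL-25 (red) left of without IL-25 (grey) at 4, 48 and 72 h. Il5 and Il13 are on log axes, dots are libraries, and the dash and bars are the mean ± SD of 4 libraries. Il5 and Il13 with IL-25 lie far above the libraries without it at every time, and Il4 with IL-25 at 48 h (63.3 to 66.7 TPM) lies below all 4 libraries without it.

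The IL-25 response of Il5 grew between 4 and 48 h, and the fall of Il4 at 48 h was not seen at 72 h. The log2 effect on Il5 was larger by 0.96 at 48 h than at 4 h (95% interval 0.54 to 1.39, adjusted p = 0.00072, limma), where 27.9% of all genes changed their effect. The change for Il13 was 0.37 (0.06 to 0.69, adjusted p = 0.07), and those for Il4 (-0.30) and Rad50 (-0.09) had adjusted p of 0.19 and 0.73. The effect on Il4 was -0.07 at 72 h and -0.63 at 48 h, a difference of 0.56 (0.22 to 0.90, adjusted p = 0.022, limma), the 1 locus gene called against 14.7% of all genes. This call was lost without IL-25 72 h replicate 1 (adjusted p = 0.056) or no IL-25 72 h replicate 4 (adjusted p = 0.058), the highest of a range that reached down to 0.0062. Over the same step the changes were 0.48 for Il5 (0.06 to 0.90, adjusted p = 0.13) and 0.38 for Il13 (0.07 to 0.69, adjusted p = 0.1). Leaving out 1 library brought 3 of these changes under the threshold: Il13 from 4 to 48 h without no IL-25 4 h replicate 2 (adjusted p = 0.033), Il13 from 48 to 72 h without IL-25 72 h replicate 3 (0.046) and Il5 from 48 to 72 h without no IL-25 72 h replicate 4 (0.049).

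The 2 arms show where these changes lay. Between 4 and 48 h with IL-25, 3 of the 4 genes were called (72.2% of all genes were): Il13 rose by 0.41 on the log2 scale (adjusted p = 0.0014), Rad50 rose by 0.33 (0.014, and 0.059 without IL-25 4 h replicate 2) and Il4 fell by 0.63 (3.8e-05), while the all-gene median was -0.24. Il5 with IL-25 averaged 2101 ± 166 TPM at 48 h and 2034 ± 218 TPM at 4 h (SD, n = 4 each), a difference of 0.05 (-0.25 to 0.35, adjusted p = 0.77, limma). Over the same interval without IL-25, Il5 fell to 187 ± 13.0 TPM at 48 h, against 360.3 ± 87.7 TPM at 4 h (-0.91, adjusted p = 5.9e-06, limma), and it fell by at least 0.58 in each of 16 alternatives. Under median-of-ratios scaling, the fall without IL-25 was 0.58 (adjusted p = 0.002) and the difference with IL-25 was 0.33 (adjusted p = 0.056), so how the change of the Il5 effect divided between the arms differed with that scaling. Rad50 rose by 0.42 without IL-25 (adjusted p = 0.0029, limma), although its 48 and 4 h libraries overlapped. Il13 without IL-25 was 23.9 ± 0.627 TPM at 48 h and 23.4 ± 3.19 TPM at 4 h (adjusted p = 0.78), but was called higher under median-of-ratios scaling (0.36, adjusted p = 0.012) and quantile normalization (0.34, 0.011). For Il4 without IL-25, the difference of -0.33 (adjusted p = 0.016) vanished under median-of-ratios scaling (0.000516, adjusted p = 1) and lost its call without replicate 1 at 4 h (0.084) or replicate 1 at 48 h (0.065). The all-gene median of this comparison was -0.28, and 3 of 4 locus genes were called against 64.4% of all genes.

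From 48 to 72 h with IL-25, all 4 genes were called, against 31.2% of all genes. Il5 rose by 0.58 (adjusted p = 0.0028), Il13 by 0.74 (7.1e-06) and Il4 by 0.68 (5.8e-05), all by limma, and each kept its call in all 16 alternatives. Il4 thus returned to 105 ± 14.3 TPM at 72 h, against 64.8 ± 1.43 TPM at 48 h and 101 ± 15.9 TPM at 4 h (SD, n = 4 each). Rad50 fell by 0.31 (adjusted p = 0.048), a call that was lost in 8 of 16 alternatives, among them each fit without replicate 1, 3 or 4 at 48 h or replicate 1, 2 or 4 at 72 h. Without IL-25, none of the 4 was called by limma from 48 to 72 h, and 0.379% of all genes were. Il13 had an unadjusted p under 0.05 there: it was 31.1 ± 4.16 TPM at 72 h and 23.9 ± 0.627 TPM at 48 h, with no overlap (0.36, adjusted p = 0.15).

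Ordered by level with IL-25, Il5 at 72 h stood above Il5 at 48 and 4 h, which did not differ beyond their spread. Il13 took the same order with each step called. The order among the genes also shifted. With IL-25 at 72 h, the means ran Il5 (3160.2 TPM), Il13 (338), Il4 (105) and Rad50 (41.2), against Il5 (360.3 TPM), Il4 (128), Rad50 (43.2) and Il13 (23.4) without IL-25 at 4 h. The level of Il5 relative to Il13 in the same library had a median of 13.5 with IL-25 and 15.1 without at 4 h, 10.5 and 7.96 at 48 h, and 9.63 and 7.20 at 72 h. Il4 relative to Il13 had a median of 0.638 with IL-25 and 5.30 without at 4 h, and of 0.313 and 3.53 at 72 h. These ratios are descriptions and were not tested.

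In the ILC2s labelled as primary and IL-25-treated, Il5 and Il4 were lower in iILC2 than in nILC2, and Il13 and Rad50 were not called. Il5 was 2.50, 2.71, 4.87 and 3.66 TPM in iILC2 KO, 1.94, 2.34, 3.82 and 2.81 TPM in iILC2 CTRL, 31.1, 31.3, 20.5 and 23.0 TPM in nILC2 KO, and 27.6, 30.03, 40.5 and 31.3 TPM in nILC2 CTRL. Every iILC2 library lay below every nILC2 library in both genotypes. Il5 was 11.9-fold lower in iILC2 than in nILC2 of CTRL mice (log2 difference -3.17, 95% interval -3.60 to -2.74, limma adjusted p = 8.9e-10) and 7.70-fold lower in KO mice (-2.64, -3.06 to -2.21, adjusted p = 2.1e-08). By size these changes ranked 82nd and 62nd of 10069 genes tested. By mean level Il5 ranked 8609th of 10176 genes in iILC2 CTRL and 3244th in nILC2 CTRL.

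Il4 had the highest mean of the 4 in all of these groups, although in iILC2 its libraries overlapped those of Rad50. It was 46.6, 53.8, 60.4 and 54.2 TPM in iILC2 KO, 56.8, 47.3, 54.7 and 55.5 TPM in iILC2 CTRL, 106, 79.2, 98.5 and 92.0 TPM in nILC2 KO, and 114, 90.0, 93.9 and 128 TPM in nILC2 CTRL. The iILC2 libraries again lay below all nILC2 libraries of their genotype. The difference was -0.96 in CTRL mice (-1.21 to -0.72, limma adjusted p = 2.7e-06), or 1.98-fold lower, and -0.79 in KO mice (-1.04 to -0.54, adjusted p = 5.2e-05).

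Il13 ranked between 7764th and 8896th of 10176 genes by mean level in these groups. It was 1.67, 3.97, 4.95 and 5.23 TPM in iILC2 KO, 1.85, 3.31, 7.19 and 5.61 TPM in iILC2 CTRL, 4.13, 3.30, 4.05 and 5.88 TPM in nILC2 KO, and 3.32, 2.99, 2.97 and 2.90 TPM in nILC2 CTRL. The iILC2 and nILC2 libraries overlapped in both genotypes, with differences of 0.33 in CTRL mice (-0.29 to 0.95, adjusted p = 0.38, limma) and -0.16 in KO mice (-0.78 to 0.46, adjusted p = 0.72). Rad50 ranged from 38.0 to 51.3 TPM in iILC2 KO, 45.4 to 51.5 in iILC2 CTRL, 40.8 to 56.1 in nILC2 KO and 42.7 to 50.4 in nILC2 CTRL. Its differences were 0.07 in CTRL mice (-0.18 to 0.31, adjusted p = 0.66) and -0.05 in KO mice (-0.29 to 0.19, adjusted p = 0.78).

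The 2 called genes of 4 stand against 45.5% of all genes called in CTRL mice and 31.4% in KO mice. The sum of the 11 ILC2 markers moved the same way as Il5 and Il4, though not every member did. It was 1454 to 1576 TPM in iILC2 KO, 1383 to 1518 in iILC2 CTRL, 2080.3 to 2831 in nILC2 KO and 2792 to 3122 in nILC2 CTRL. Of the 11, 1 was called higher and 9 lower in iILC2 of CTRL mice. In KO mice 1 was called higher, 6 lower and 4 were not called. Thy1 averaged 32.2 TPM in iILC2 CTRL and 14.4 TPM in nILC2 CTRL, and 42.2 and 19.1 TPM in KO. Cd3g, the 1 of 9 T cell markers listed, was at 11.03 to 30.2 and 6.97 to 25.1 TPM in iILC2 KO and CTRL, against 24.4 to 87.1 and 46.8 to 80.9 TPM in nILC2 KO and CTRL. Cd79b, the 1 of 6 B cell markers listed, was at 232 to 254 and 238 to 282 TPM in iILC2 KO and CTRL, against 125 to 134 and 117 to 154 TPM in nILC2 KO and CTRL. The 2 of 8 myeloid markers listed, Itgam and Cd68, summed to 12.5 to 14.8 and 8.34 to 13.7 TPM in iILC2 KO and CTRL, against 1.90 to 4.59 and 0.79 to 4.00 TPM in nILC2 KO and CTRL. The epithelial markers Epcam and Krt18 summed to 8.74 to 12.5 and 13.6 to 16.5 TPM in iILC2 KO and CTRL, against 12.0 to 16.5 and 18.4 to 30.4 TPM in nILC2 KO and CTRL. Myeloid and B cell marker RNA was thus higher in iILC2, and T cell marker RNA and the epithelial sum mostly lower. The epithelial markers went opposite ways. Epcam fell by 1.78 in CTRL mice and 1.28 in KO mice. Krt18 was higher in iILC2 of CTRL mice (9.7 against 3.3 TPM, 1.32) and was not called in KO mice (0.42). Within CTRL mice, Klrg1, a receptor of activated ILC2s, averaged 583 TPM in iILC2 and 689 TPM in nILC2, and Il1rl1, the IL-33 receptor, averaged 3.49 TPM in iILC2 and 66.8 TPM in nILC2. The part of these differences in the Il5 and Il4 result was not tested. The ratio of Il5 to Il13 had a median of 0.842 in iILC2 KO, 0.619 in iILC2 CTRL, 6.29 in nILC2 KO and 10.4 in nILC2 CTRL.

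**Figure D2:**
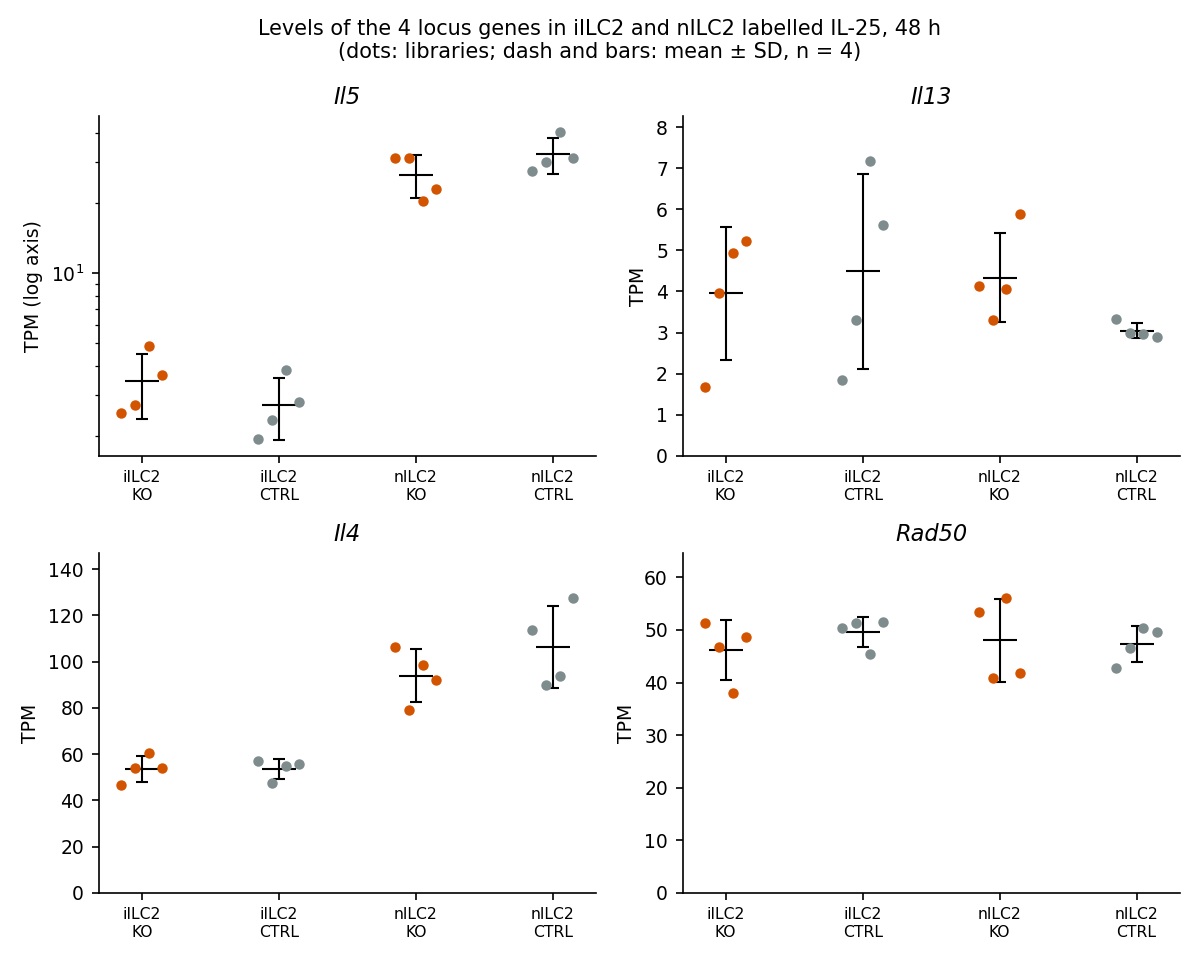
TPM of the 4 genes in each library of iILC2 KO, iILC2 CTRL, nILC2 KO and nILC2 CTRL, with Il5 on a log axis. Dots are libraries, and the dash and bars are the mean ± SD of 4 libraries. Il5 (1.94 to 4.87 TPM in iILC2, 20.5 to 40.5 in nILC2) and Il4 separate iILC2 from nILC2, and KO (orange) overlaps CTRL (grey) in every panel.

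**Figure D3:**
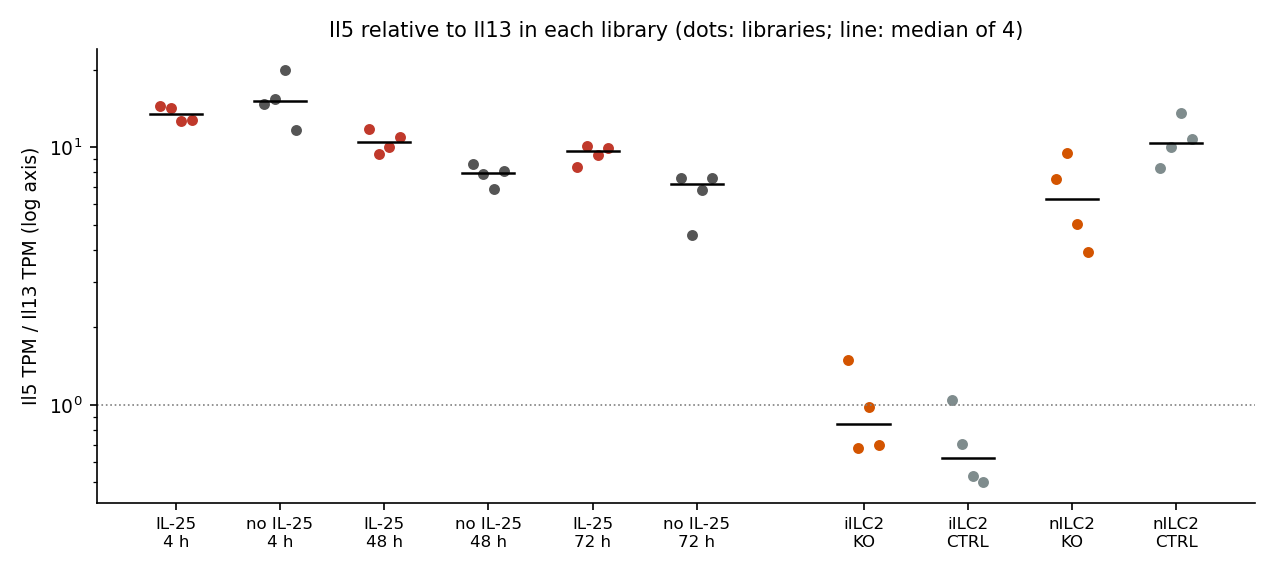
Il5 TPM divided by Il13 TPM in each library, on a log axis with a dotted line at 1. Groups with IL-25 are left of those without at each time of culture, and KO is left of CTRL. The medians (lines) lie between 7.20 and 15.1 in culture, at 6.29 and 10.4 in nILC2 KO and CTRL, and at 0.842 and 0.619 in iILC2 KO and CTRL.

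Loss of Rxrg gave no call at the locus. KO and CTRL libraries overlapped for all 4 genes in both iILC2 and nILC2, and no gene of the 4 had an unadjusted p under 0.05. In nILC2, Il5 averaged 26.5 ± 5.54 TPM in KO and 32.3 ± 5.64 TPM in CTRL (SD, n = 4 each), a log2 difference of -0.29 (95% interval -0.71 to 0.14, adjusted p = 0.46, limma). Il13 averaged 4.34 ± 1.09 TPM in nILC2 KO and 3.05 ± 0.187 TPM in nILC2 CTRL, a difference of 0.38 (-0.24 to 1.00, adjusted p = 0.51), and the groups overlapped only by the lowest KO library (3.30 TPM) and the highest CTRL library (3.32 TPM). Il4 differed by -0.17 (-0.42 to 0.08, adjusted p = 0.45) and Rad50 by 0.01 (-0.23 to 0.26, adjusted p = 0.98). In this comparison 1.54% of all genes were called. In iILC2 the differences were 0.24 for Il5 (-0.18 to 0.67), -0.11 for Il13 (-0.73 to 0.51), 0.00 for Il4 (-0.25 to 0.25) and -0.11 for Rad50 (-0.35 to 0.14), each with a limma adjusted p of 1. There, 0% of all genes were called, and 328 of 10069 had an unadjusted p under 0.05. The KO effect on Il5 differed between iILC2 and nILC2 by 0.53 (-0.07 to 1.13, adjusted p = 0.52), and those on Il13, Il4 and Rad50 by -0.49, 0.17 and -0.12 (adjusted p = 0.7, 0.74 and 0.83, limma), where again 0% of genes were called and 1059 had an unadjusted p under 0.05. Summed Y-linked RNA was under 5 TPM in 2 of 4 KO libraries and 1 of 4 CTRL libraries of each cell type, and a term for it changed none of the calls. In nILC2 KO, Il5 was 31.1 and 31.3 TPM in the 2 libraries under that level and 20.5 and 23.0 TPM in the others. In iILC2 KO the order was opposite, with 2.50 and 2.71 TPM under that level and 3.66 and 4.87 TPM in the others. In CTRL the library under that level lay within the range of the others, at 30.03 TPM (27.6 to 40.5) in nILC2 and 2.34 TPM (1.94 to 3.82) in iILC2.

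**Figure D4:**
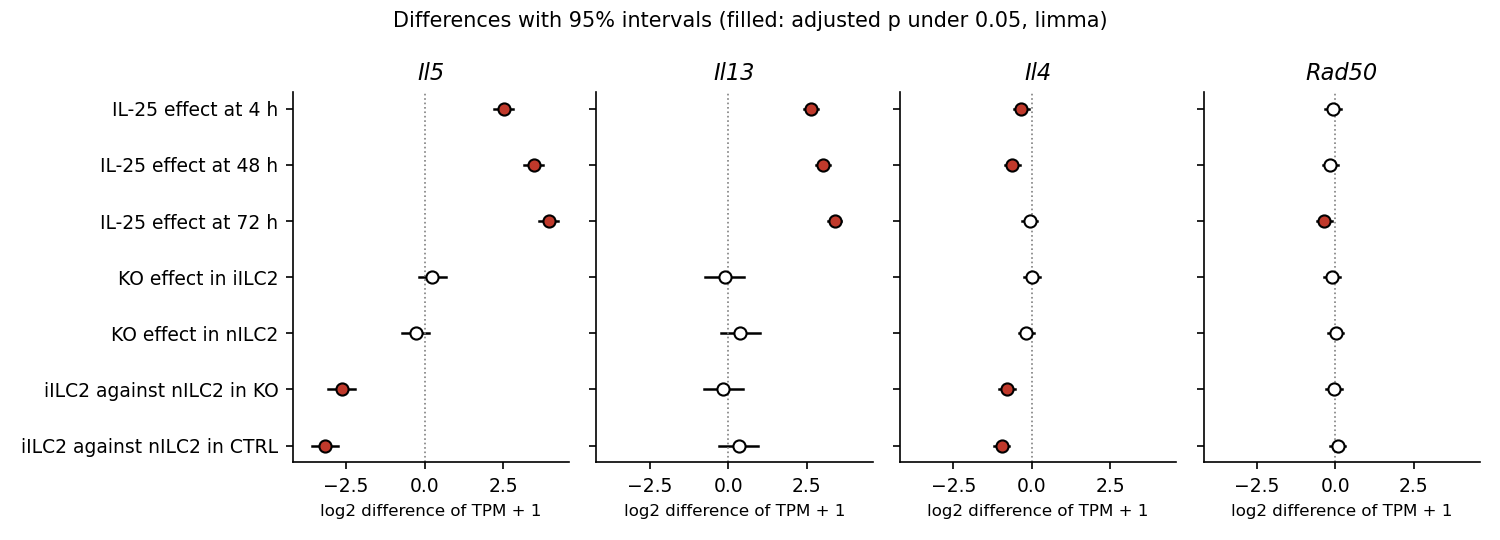
Log2 differences of TPM + 1 for each gene, the first-named group minus the second, or with minus without IL-25 and KO minus CTRL. Bars are 95% intervals, and filled points have a limma adjusted p under 0.05. Il5 and Il13 lie at 2.52 to 3.96 for IL-25, Il5 lies at -2.64 and -3.17 for iILC2 against nILC2, and all points of the KO effect are open.

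The genes around the locus did not rise as a group with Il5 and Il13, although single genes rose. The annotation placed 32 genes within 300 kb on either side or inside the span. Of those outside the 4, 9 were listed in culture and 8 in the other table. With IL-25, 1 of the 9 rose and 4 fell at 4 h, 2 rose and 4 fell at 48 h, and 2 rose and 4 fell at 72 h, with medians of -0.16, -0.24 and -0.20 beside all-gene medians of -0.12, -0.09 and -0.20. Irf1, an interferon-induced transcription factor and the nearest listed gene beyond Il5, averaged 42.8 TPM with IL-25 and 81.7 TPM without at 48 h (-0.92). Kif3a, a kinesin motor gene of cilia and the nearest listed gene beyond Il4, averaged 28.8 TPM with IL-25 and 23.3 TPM without (0.30, not called). The noncoding gene Gm12216 fell by 1.59 at 48 h and Septin8, a filament gene, by 0.98. Uqcrq, a subunit of respiratory complex III, rose by 0.44. Zcchc10 averaged 116 TPM with IL-25 and 93.9 TPM without at 48 h, and 159 and 104 TPM at 72 h, but 43.1 and 48.6 TPM at 4 h. After rescaling by the median of ratios, 2 falls passed at 4 h, 4 at 48 h and 3 at 72 h. Over all genes, 13.4%, 21.4% and 15.3% were called higher and 26.9%, 28.7% and 33.2% lower at 4, 48 and 72 h.

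Between iILC2 and nILC2, 2 of the 8 flanking genes rose and 3 fell in each genotype, where 45.5% of all genes were called in CTRL mice and 31.4% in KO mice. Aff4, a subunit of the super elongation complex, fell by 1.01 in CTRL mice and Gm12216 by 1.13, both less than Il5 and more than Il4. Septin8 rose by 0.46 and Uqcrq by 0.71. None of the 8 was called for the KO effect.

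**Figure D5:**
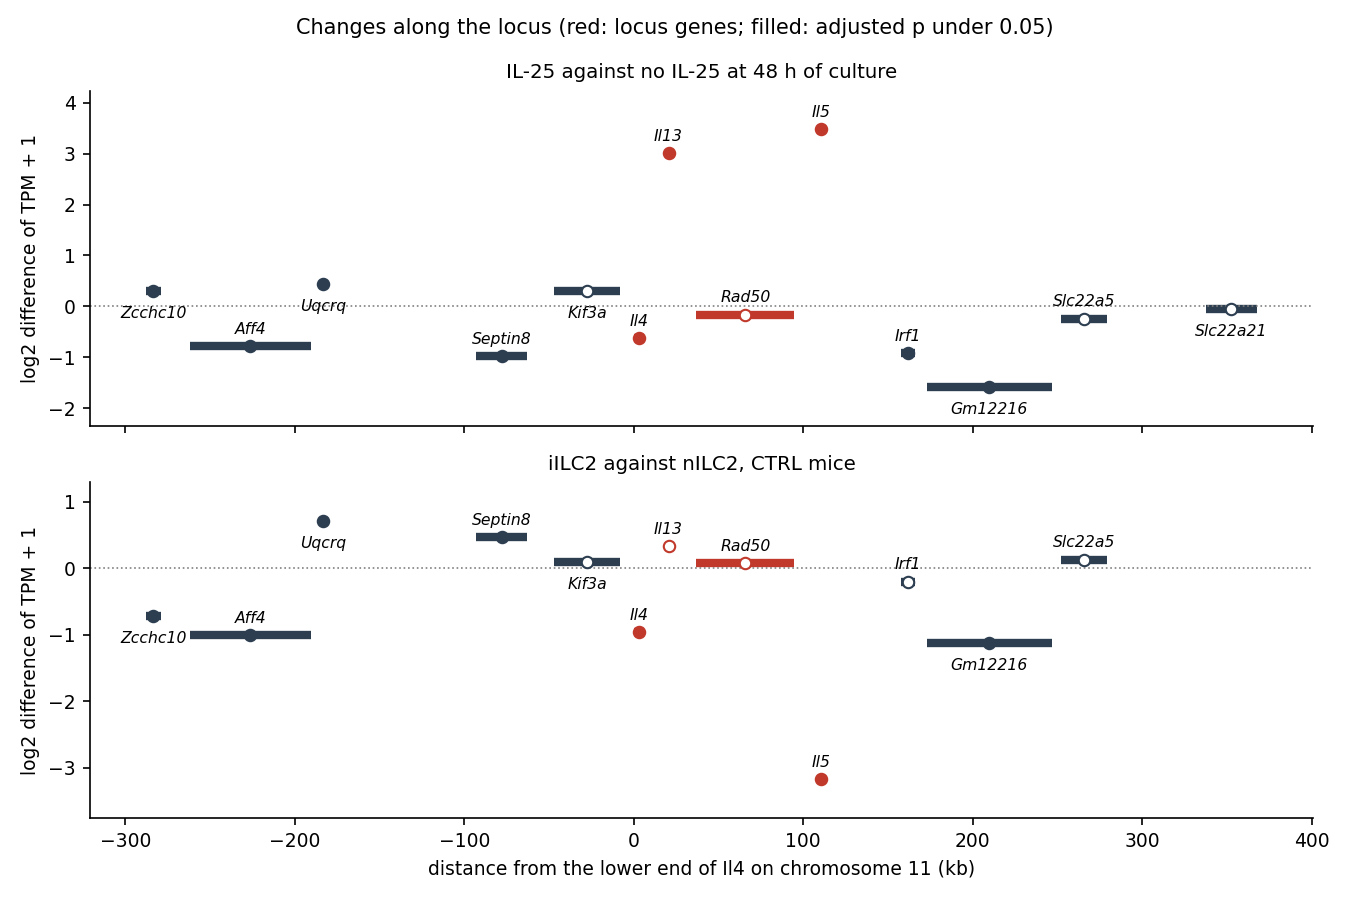
Log2 difference of TPM + 1 for the 4 locus genes (red) and the listed flanking genes (dark) by their distance in kb from the lower end of Il4, for IL-25 against no IL-25 at 48 h (top) and iILC2 against nILC2 in CTRL mice (bottom). Bars span each gene, and filled points have a limma adjusted p under 0.05. Il13 and Il5 lie at 3.01 and 3.48 in the top panel, where the flanking genes lie between -1.59 and 0.44, and Il5 lies at -3.17 in the bottom panel.

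Of 7 receptor genes for the 3 cytokines, 3 were tested in culture. Il4ra, the chain shared by IL-4 and IL-13, was 16.6 ± 4.36 TPM with IL-25 and 43.3 ± 5.83 TPM without at 48 h (SD, n = 4 each; -1.35, adjusted p = 1.7e-07, limma). Il2rg, the common gamma chain of the IL-4 receptor, was 301 ± 36.3 TPM with IL-25 and 950.1 ± 51.9 TPM without (-1.66, adjusted p = 1.2e-15). At 72 h both were still lower with IL-25 than without (-1.13 and -1.41), although with IL-25 they rose from 48 to 72 h by 0.52 each (adjusted p = 0.017 and 5e-06, limma), and Il2rg alone was called at 4 h (-0.23, adjusted p = 0.015, but 0.43 after rescaling by the median of ratios). In iILC2 against nILC2 of CTRL mice, Il4ra was 3.35 ± 0.330 against 11.6 ± 1.22 TPM and fell by 1.53, and Il2rg fell by 0.83. Csf2rb, the shared chain of the IL-5 receptor, was at 0.74 to 2.03 TPM on average in the culture groups and was not called.

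Among 12 other ILC2 cytokine genes tested in culture, 6 rose and none fell at 4 h, 3 rose and 4 fell at 48 h, and 3 rose and 5 fell at 72 h, with list medians of 0.50, -0.13 and 0.33 (some members were listed at 0 in 1 group). Of all genes, 13.4%, 21.4% and 15.3% were called higher at 4, 48 and 72 h and 26.9%, 28.7% and 33.2% lower. Areg, the growth factor amphiregulin, rose with Il5 and Il13 at all 3 times, and was 378 ± 45.2 TPM with IL-25 and 35.3 ± 9.23 TPM without at 72 h (3.41). Il9, a mast cell growth factor, rose by 5.07 at 4 h and 3.09 at 48 h, and at 72 h was 8.30 ± 7.32 TPM with IL-25 and 2.60 ± 1.11 TPM without (0.96, adjusted p = 0.1, limma). Csf2, which encodes GM-CSF, rose by 1.40 at 4 h and was at or near 0 later. Tnf, encoding the inflammatory cytokine TNF, rose by 1.17 at 4 h but fell by 1.81 at 48 h. Il10, an anti-inflammatory cytokine, was 195 ± 31.5 TPM with IL-25 at 48 h and was listed at 0 without it. In iILC2 against nILC2, all 6 tested cytokine genes fell in both genotypes, where 45.5% of all genes were called in CTRL and 31.4% in KO mice, with list medians of -1.97 in CTRL and -1.96 in KO mice. Ccl1, a chemokine of type 2 cells, was the 1 of 6 called for the KO effect in nILC2. It was 4.26 ± 3.30 TPM in KO and 15.6 ± 6.84 TPM in CTRL (adjusted p = 0.0098, limma). In that comparison 155 genes were called, and 5 to 1003 over 17 alternatives. No alternative is given here for Ccl1.

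Of 37 tested transcription factors and chromatin proteins that act on type 2 cytokine genes or in ILC2s, 11 rose and 7 fell with IL-25 at 4 h, 8 rose and 17 fell at 48 h, and 12 rose and 12 fell at 72 h. These 18, 25 and 24 of 37 stand against 40.3%, 50.1% and 48.5% of all genes called at 4, 48 and 72 h. After rescaling by the median of ratios these counts were 15 and 5, 9 and 16, and 13 and 10. Gata3 is a factor that T helper 2 cells and ILC2s need for these cytokines. At 48 h it was 295 ± 10.96 TPM with IL-25 and 723 ± 67.1 TPM without (-1.29, adjusted p = 2.7e-13, limma). At 72 h it was 523 ± 9.37 TPM with IL-25 and 877 ± 83.0 TPM without. Its part in the results on the locus genes was not tested. The AP-1 partners Batf and Irf4 rose at all 3 times, by 1.31 and 1.21 at 4 h and by 1.27 and 2.37 at 48 h. Nfil3, a factor of innate lymphoid development, rose by 3.26 at 48 h and Rora, another such factor, fell by 2.27. In nILC2, 2 of 36 tested factors were called in KO against CTRL, where 1.54% of all genes were: Gata3 was 218 ± 25.4 TPM in KO and 282 ± 13.4 TPM in CTRL (-0.37, adjusted p = 0.038, limma), and Id2, an inhibitor of E proteins, was 519 ± 105 TPM in KO and 755 ± 59.6 TPM in CTRL (-0.55, adjusted p = 0.029). That KO comparison was unstable, with 155 genes called and 5 to 1003 over 17 alternatives. No alternative is given here for the Gata3 and Id2 calls. In iILC2 against nILC2 of CTRL mice, 6 of 36 factors rose and 17 fell, against 45.5% of all genes called. Gata3 was at -0.76, Id2 at -2.89, Relb at -3.04, Bhlhe40 at -2.99 and Jun at -2.71.

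Rad50 acts with partner proteins whose genes were set beside it. Of 7 tested, none rose with IL-25 and 1, 2 and 3 fell at 4, 48 and 72 h, with medians of 0.11, -0.23 and -0.38. Of all genes, 26.9%, 28.7% and 33.2% were called lower at these times. Nbn, which encodes the complex partner NBS1, was 13.4 ± 0.748 TPM with IL-25 and 27.4 ± 2.61 TPM without at 72 h (-0.97, adjusted p = 2.6e-07, limma). Atm, the kinase that the complex activates, fell by 1.02 at 72 h. Mre11a, the nuclease partner, was 17.8 ± 3.04 TPM with IL-25 and 23.3 ± 1.47 TPM without (-0.38, adjusted p = 0.13). In iILC2 against nILC2, 2 of the 7 were called in CTRL mice and 1 in KO mice, both times higher, where 45.5% and 31.4% of all genes were called. Rbbp8, which encodes the end-resection factor CtIP, rose by 1.03 in CTRL mice and 0.74 in KO mice. Mre11a rose by 0.40 in CTRL mice (adjusted p = 0.023, limma) but not in KO mice (0.01, adjusted p = 0.95). None of the 7 was called for the KO effect.

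The genes most like each locus gene were taken by Pearson r of log2(TPM + 1) among tested genes with a mean of at least 10 TPM in at least 1 group. The libraries fall into groups, so r mostly measures likeness across groups, and no test was made. Over 24 cultured libraries Il5 was most like Mras, a small GTPase (r = 0.974), Il13 (0.964) and Pgam1, a glycolytic enzyme (0.958). Mras was 121 TPM with IL-25 and 6.97 TPM without at 72 h. Il13 was most like Il5, Mras (0.941) and Tox2, a nuclear HMG-box protein (0.938). Il4 was most like Pea15a (0.854), Chmp2a (0.841) and Rsrp1 (0.841), and Rad50 was most like the ribosomal protein gene Rpl3 (0.845), Mad1l1 (0.844) and Pcgf1 (0.824). Il5 and Il4 had r of -0.43 in culture. Over the 16 other libraries Il5 and Il4 had r of 0.93, and Il5 and Il13 had r of -0.04. There Il5 was most like Asb2 (0.987), Sdc4 (0.986) and Cd83 (0.986), Il4 was most like Rps9 (0.972), Rgs1 (0.971) and Myo6 (0.968), Il13 was most like Brcc3 (0.810), Mkks (0.736) and Nt5dc2 (0.730), and Rad50 was most like Klf6 (0.711), Mtfmt (0.707) and Kansl3 (0.706).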

How the data were processed

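RNA of 40 libraries in 10 groups of 4 was analysed. The submitters' processing notes name the trimmer cutadapt 2.10, the aligner STAR 2.7.5c, the quantifier RSEM 1.3.3 and the genome mm10. The authors deposited TPM values, for 24 cultured libraries in 1 table and 16 libraries of iILC2 and nILC2 in another. The authors' filter on genes is not given in the sources used here. Columns summed to 873200 to 898025 TPM and 849733 to 886670 TPM. TPM holds no read total, so precision rests on replicates alone.

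Each table was fitted alone over all its groups with limma 3.58.1 (R 4.3.3) on log2(TPM + 1), with an intensity trend, over genes that reached 1 TPM in 4 or more libraries. Benjamini-Hochberg adjustment ran across every tested gene of the table, and an adjusted p under 0.05 was a call. Because of the pseudocount, fold changes of low genes are understated. The method was tested on simulated data. The locus genes and all lists were chosen with earlier results of these data known. Named genes were the 4 locus genes, the 3 genes most like each, annotated neighbours within 300 kb, up to 6 called members per list with the largest change plus Gata3, Il9, Areg, Csf2, Nbn and Atm, and Rxrg; others were named for their role. Promoter sequences and positions are RefSeq's for GRCm38.p6. Alternatives were another pseudocount, filter or scaling, array weights, a fit of the compared groups alone, a replicate block, a Y-linked term, and leaving out each library. Same-numbered libraries of iILC2 KO and nILC2 KO had r of deviations of 0.102 to 0.231. For iILC2 CTRL and nILC2 CTRL r was 0.049 to 0.253. Libraries of different genotypes cannot share a mouse, yet r was -0.0186 to 0.243 for nILC2 KO with iILC2 CTRL. It was -0.0443 to 0.187 for nILC2 CTRL with nILC2 KO. These ranges overlap, so the correlations alone did not show pairing. Y-linked RNA was absent or near 0 in the same numbers of iILC2 and nILC2 (replicate 2 of CTRL, replicates 1 and 2 of KO), a hint that same-numbered libraries of a genotype came from the same mice, which the labels do not state.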

Additional observations from a re-analysis of the deposited data

Results flagged for a closer look

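Il5 in the third library without IL-25 at 4 h was 492 TPM, far from the other 3 (308, 318 and 323 TPM). It was the 1 of 40 sets of 4 libraries with such a gap, where chance gives about 1 in 20. The effect of IL-25 on Il5 differed between 48 and 4 h by 0.96 on the log2 scale (limma adjusted p = 0.00072), and over 24 alternatives the difference lay between 0.81 and 1.03, the library above left out among them. The effect on Il4 differed between 72 and 48 h by 0.56 (adjusted p = 0.022), with all 4 libraries with IL-25 at 48 h below those without and the groups overlapping at 72 h.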

How the results depend on the processing

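Over 56 differences of the locus genes and 1012 alternatives, 983 kept their direction and side of the threshold, and 46 differences did so in all of theirs. The calls of Il5 and Il13 for IL-25 at each time, of Il4 at 48 h, and of Il5 and Il4 between iILC2 and nILC2 held in all. No call changed with the replicate block: the effect on Il5 at 4 h was 2.52 in that fit. Same-numbered libraries of the culture groups correlated between -0.131 and 0.147 in their deviations, so the numbers did not pair them. After rescaling by the median of ratios, Il4 at 48 against 4 h without IL-25 reversed (0.000516), the IL-25 effects on Il4 at 4 h (-0.18) and Rad50 at 72 h (-0.13) and Rad50 at 72 against 48 h with IL-25 (-0.24) lost their calls, and Il13 gained calls for 48 against 4 h without IL-25 (0.36) and for the change of effect from 48 to 72 h (0.51). After quantile normalization, Il4 (-0.23) and Rad50 (-0.24 at 72 h and -0.20 between 48 and 72 h) lost the same kind of calls and Il13 at 48 against 4 h without IL-25 gained one (0.34). In the fit of the compared groups alone, the change for Il13 from 4 to 48 h passed (0.37). The cause was not tested. Leaving out 1 library gave ranges of -0.43 to -0.24 for the effect on Il4 at 4 h, -0.42 to -0.31 for Rad50 at 72 h, 0.30 to 0.44 for the change for Il13 from 4 to 48 h, 0.28 to 0.45 for Il13, 0.48 to 0.63 for Il4 and 0.35 to 0.60 for Il5 from 48 to 72 h, -0.40 to -0.24 for Il4 at 48 against 4 h without IL-25, and 0.27 to 0.38 and -0.36 to -0.27 for Rad50 with IL-25 at 48 against 4 h and 72 against 48 h. Counts over all genes moved most for KO in nILC2 (155 called, and 5 to 1003 in 17 alternatives, with 317 under the replicate block, 5 in the fit of the compared groups alone, 1003 without nILC2 KO replicate 1 and 12 without nILC2 CTRL replicate 4), for 72 against 48 h without IL-25 (40, and 3 to 86) and for the difference of KO effects (0, and 0 to 132, the highest without nILC2 KO replicate 1). Unknown depth leaves low levels, such as Il13 in iILC2 and nILC2, without a counting error.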
